A study of Rattus norvegicus with 4 samples.

Results

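Cytokinesis genes encode the proteins that cut a dividing cell in 2 after its chromosomes have been separated. The 10 genes described here are Anln, Ect2, Racgap1, Kif23, Kif20a, Prc1, Cit, Aurkb, Myh9 and Myh10. They were listed by name for a known role in cytokinesis, with earlier results of these data known, so that their shares are not independent of the data, and each symbol was found once among the 15731 genes of the deposited RPKM table. The RNA came from neonatal ventricular cardiomyocytes of Wistar rats, isolated on postnatal day 1 according to one label and on day 0 according to another. The cells had been transfected by Lipofectamine RNAiMAX with a synthetic mimic of 1 human miRNA, which was hsa-miR-25-3p, hsa-miR-93-5p or hsa-miR-106b-5p, or with the control mimic cel-miR-67, which copies a miRNA of a worm, and were harvested after 72 h. The labels give the mimic dose as 25 nM in one protocol and as 25 mM in another. All 4 groups carried wild-type rat cells, the same transfection reagent and a mimic, and an untransfected culture was not analysed here. Myocytes were enriched by letting other cells settle on plastic and were not sorted, so the cultures could still hold other cell types.

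Cytokinesis starts when antiparallel microtubules are bundled between the separating chromosomes into the central spindle, or midzone. There, the centralspindlin complex of Racgap1 and Kif23 binds Ect2, which activates RhoA, and RhoA drives the assembly and contraction of a ring of actin and non-muscle myosin II that anillin anchors to the membrane. The remaining bridge is cut by the ESCRT machinery in a step called abscission. Rodent cardiomyocytes are known for a last round of cell cycle soon after birth in which the nucleus divides but the cell does not, which leaves binucleated cells. The comparison of each mimic with cel-miR-67 therefore addressed whether genes of this last step of division differed in level in cells given 1 of these 3 miRNAs, which are encoded as a cluster within Mcm7.

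The mature rat miRNAs of the cluster are shown because the seed, written in capitals and spanning bases 2 to 8, separates the 3 mimics into a pair and a single miRNA. The sequences are those of RefSeq for the rat genome GRCr8, 5′ to 3′, and the mimics themselves were of the human miRNAs. All 3 lie on the minus strand of chromosome 12, at chr12:22157103-22157123 for miR-106b, chr12:22156894-22156916 for miR-93 and chr12:22156652-22156673 for miR-25.

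rno-miR-106b-5p: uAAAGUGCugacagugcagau

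rno-miR-93-5p: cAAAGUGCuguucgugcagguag

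rno-miR-25-3p: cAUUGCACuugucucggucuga

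The seed AAAGUGC was shared by miR-106b and miR-93, and miR-25 had the seed AUUGCAC.

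Expression was given as RPKM, a read count divided by exon length and by library size. Levels of different genes thus depend on the exon length used for each. The summed RPKM of all genes also differed between libraries, from 299389 with miR-25 to 352894 in the control, so comparisons between libraries depend on the scaling. There was 1 library for each mimic, so no difference could be tested against the spread between cultures, and no p-value is given. Whole reads were recovered from the RPKM values of all 15731 genes, with between 15175185 and 18797234 reads on the listed genes of a library. The 95% exact (Clopper-Pearson) intervals given beside log2 fold changes come from these reads and cover counting error only. A gene was called higher or lower where its RPKM ratio passed 1.3-fold with RPKM above 1.0 in both libraries, and members are read beside the percentage of all tested genes called in the same direction. The 3 comparisons with cel-miR-67 share that 1 control library, so an error in it would appear in all of them.

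In the control library, the 8 members other than the myosins summed to 115 RPKM. The sum was 176 under miR-106b, 134 under miR-93 and 65.1 under miR-25, the lowest of the 4 libraries. The myosins Myh9 and Myh10 together had 207 RPKM in the control, 201 under miR-106b, 216 under miR-93 and 156 under miR-25. In bulk RNA, fewer dividing cells and less RNA of a gene per dividing cell cannot be told apart, nor can myocytes be told from other cells as the source of these transcripts. The members spanned a wide range of levels, from Cit with 1.56 RPKM to Myh9 with 152 RPKM in the control library.

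**Figure D1:**
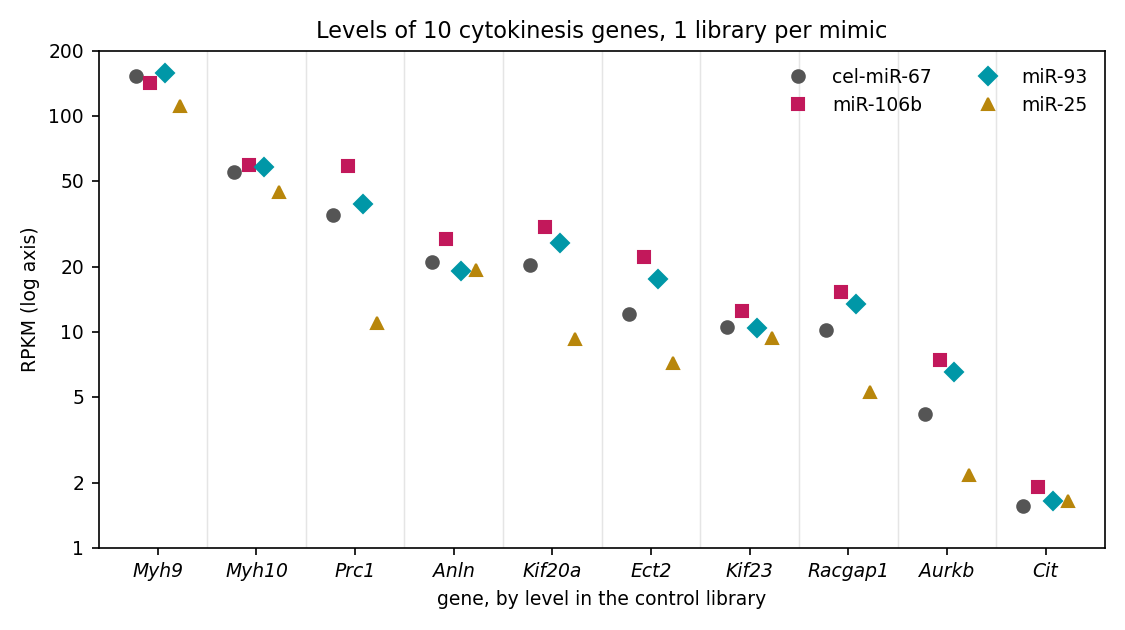
RPKM of each of the 10 cytokinesis genes (log axis) in the 1 library of each mimic, with genes ordered by their level in the cel-miR-67 library. The miR-106b square is the highest of the 4 points for Prc1 at 58.8 RPKM and the miR-25 triangle the lowest at 10.95, whereas the 4 points of Cit lie between 1.56 and 1.91 RPKM.

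With miR-106b, 5 of the 10 members were called higher and 0 lower, against 11.9% of 11296 tested genes called higher and 12.7% called lower. With miR-93, 3 of 10 were higher and 0 lower, where 15.1% of 11280 tested genes were higher and 15.6% lower. With miR-25, 0 of 10 were higher and 6 lower, where 19.3% of 11198 tested genes were higher and 22.6% lower. The shares of members called higher were thus 50% under miR-106b and 30% under miR-93, and the share called lower under miR-25 was 60%, each above the percentage of all genes. In the miR-25 library the summed level of 13 cardiomyocyte markers was also lower, at 13558 RPKM against 23306 in the control. The 10 fibroblast markers summed to 350.0 RPKM against 852, with 7 called lower and 1 higher, although their median level was 16.4 RPKM in both libraries. The 7 smooth muscle and pericyte markers summed to 2079 against 772 RPKM. The part of these markers in the result was not tested. The median log2 fold change over the 10 members was 0.47 under miR-106b, 0.13 under miR-93 and -0.61 under miR-25. After rescaling the libraries to equal RPKM totals, the members' median was 0.27 under miR-93 and -0.37 under miR-25. The median over all tested genes as deposited was -0.0033, -0.0018 and -0.012 in the same order.

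**Figure D2:**
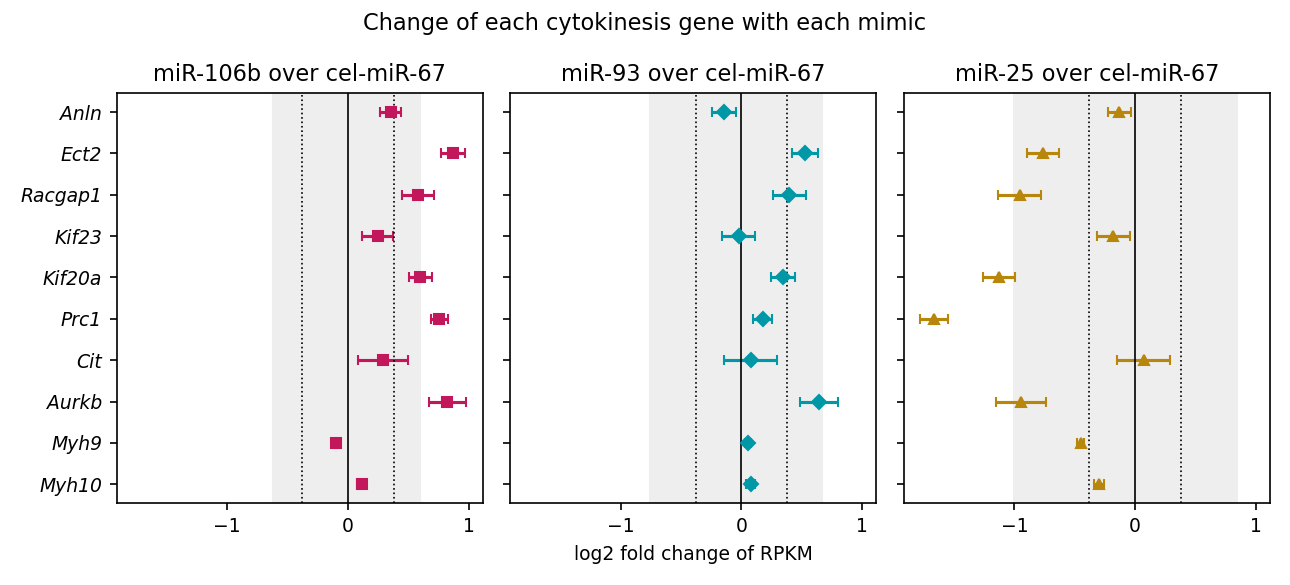
Log2 fold change of RPKM over cel-miR-67 for each cytokinesis gene, with 95% exact intervals of counting error as bars, dotted lines at 1.3-fold and a grey band from the 5th to the 95th percentile of all tested genes. Ect2 and Aurkb lie right of the upper dotted line with miR-106b and miR-93 and left of the lower one with miR-25, whereas Cit lies between the lines in the 3 panels.

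Centralspindlin is built from Racgap1, a GTPase-activating protein that binds Ect2, and the kinesin Kif23, which moves along midzone microtubules. Racgap1 had 10.2 RPKM in the control, 15.3 under miR-106b, 13.5 under miR-93 and 5.28 under miR-25, from 682, 1338, 1082 and 423 reads. The log2 fold change of Racgap1 was 0.58 under miR-106b (0.45 to 0.72), 0.40 under miR-93 (0.26 to 0.54) and -0.95 under miR-25 (-1.13 to -0.78), and all 3 passed the cutoff. With a pseudocount of 1 RPKM, the value with miR-93 was 0.37 and no longer passed it. Both seed-sharing mimics thus lay above the control and miR-25 below it, although the interval with miR-93 reached below the log2 cutoff of 0.38.

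Kif23 moved less than its partner. It had 10.6 RPKM in the control, 12.5 under miR-106b, 10.4 under miR-93 and 9.34 under miR-25, and none of these 3 ratios passed 1.3-fold. The log2 fold change was 0.25 under miR-106b (0.12 to 0.38), -0.02 under miR-93 (-0.16 to 0.11) and -0.18 under miR-25 (-0.32 to -0.04). The level of Kif23 over that of Racgap1, both per length, was therefore uneven between libraries, at 1.03 in the control, 0.82 under miR-106b, 0.77 under miR-93 and 1.77 under miR-25. On the log2 scale, this ratio differed from the control by -0.33 under miR-106b (-0.52 to -0.15), -0.42 under miR-93 (-0.62 to -0.23) and 0.78 under miR-25 (0.55 to 1.00). The pair was singled out after its values were seen, as were Myh9 and Myh10 below.

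Ect2, the guanine nucleotide exchange factor that activates RhoA at the cell equator, had 12.1 RPKM in the control. Its level was 22.2 RPKM under miR-106b, 17.5 RPKM under miR-93 and 7.17 RPKM under miR-25, from 1112 reads in the control and 2670, 1932 and 789 with the mimics. The miR-106b library was the highest for this gene, 1.83-fold above the control, and the log2 fold change of 0.87 (0.77 to 0.97) was the largest increase among the 10 members with that mimic. With miR-93 the difference was 0.53 (0.42 to 0.64), and with miR-25 it was -0.76 (-0.89 to -0.63), with a direct ratio of miR-25 over miR-106b of 3.10-fold lower.

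Aurkb encodes Aurora B, the kinase of the chromosomal passenger complex, which leaves the centromeres for the midzone at anaphase. It was among the less abundant members, with 4.18 RPKM in the control, 7.40 under miR-106b, 6.52 under miR-93 and 2.17 under miR-25, from 496, 1152, 932 and 310 reads. That rank depends on the exon length of 5233 bases recovered for Aurkb, which does not enter its ratios between libraries. Aurkb was called in each comparison with the control. The log2 fold change was 0.82 under miR-106b (0.67 to 0.98), 0.64 under miR-93 (0.48 to 0.80) and -0.94 under miR-25 (-1.15 to -0.74). With miR-93, Aurkb was the most increased of the 10 members and the only one whose ratio also passed 1.5-fold.

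Prc1 is the microtubule bundler on which the midzone is built, and Kif20a is a kinesin that brings Aurora B to it. Prc1 was the most abundant member after the myosins in 3 of the 4 libraries, with 34.7 RPKM in the control, 58.8 under miR-106b and 39.2 under miR-93, but had 10.95 RPKM under miR-25. Reads on Prc1 numbered 2307, 5118, 3138 and 874 in that order. Relative to the control, the log2 level of Prc1 differed by 0.76 under miR-106b (0.69 to 0.83) and by -1.67 under miR-25 (-1.78 to -1.55). The latter corresponds to 3.17-fold, the largest difference from the control among the members with any mimic. With miR-93 the log2 fold change of Prc1 was 0.18 (0.10 to 0.25), under the cutoff.

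Kif20a had 20.3 RPKM in the control, 30.7 under miR-106b, 25.7 under miR-93 and 9.27 under miR-25. For Kif20a the log2 fold change was 0.60 with miR-106b (0.50 to 0.69) and -1.13 with miR-25 (-1.26 to -0.998), so that Kif20a and Prc1 were the 2 members more than 2-fold lower with miR-25. With miR-93 it was 0.34 (0.24 to 0.44), just short of 1.3-fold. In the RefSeq annotation Kif20a overlaps Cdc23, a subunit of the anaphase-promoting complex, and whether reads were counted by strand is not given in the sources used here. Cdc23 had log2 fold changes of 0.19 under miR-106b, 0.22 under miR-93 and -0.30 under miR-25, none past the cutoff.

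Anln encodes anillin, the scaffold that links actin, myosin, septins and RhoA in the ring. It had 21.1 RPKM in the control, 27.0 under miR-106b, 19.1 under miR-93 and 19.3 under miR-25. The miR-106b library was the highest, 1.28-fold above the control, and the other 3 libraries lay close together. The log2 fold change was 0.35 under miR-106b (0.26 to 0.44), -0.15 under miR-93 (-0.24 to -0.05) and -0.13 under miR-25 (-0.23 to -0.03), and none was called. With miR-25, Anln was therefore the most abundant of the 8 members other than the myosins, with an RPKM 1.76-fold that of Prc1 (1.62 to 1.91), whereas in the control Prc1 had 1.65-fold the RPKM of Anln (1.54 to 1.75). Anln overlaps Matcap2 in the RefSeq annotation.

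Cit encodes citron kinase, a RhoA-binding protein that organizes the midbody. It had 1.56 RPKM in the control, 1.91 under miR-106b, 1.65 under miR-93 and 1.64 under miR-25, from 307 to 492 reads. These levels were close to each other, and with miR-93 and miR-25 the interval of the log2 fold change included 0 (0.08, -0.14 to 0.30, and 0.07, -0.15 to 0.29). With miR-106b the log2 fold change was 0.29 (0.08 to 0.50).

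Myh9 and Myh10 encode the heavy chains of non-muscle myosin IIA and IIB, which contract the ring and also serve migration and adhesion in cells that do not divide. Myh9 had 152 RPKM in the control, 142 under miR-106b, 158 under miR-93 and 111 under miR-25, from 18854 to 26860 reads. Myh10 had 54.7 RPKM in the control, 59.2 under miR-106b, 57.6 under miR-93 and 44.3 under miR-25. For both genes as deposited, the miR-25 library was the lowest and the other 3 libraries differed little from each other. Myh9 was called lower with miR-25, at -0.45 (-0.48 to -0.42), and Myh10 was at -0.30 (-0.34 to -0.26), under the cutoff. With miR-106b the log2 fold changes were -0.10 for Myh9 (-0.13 to -0.07) and 0.11 for Myh10 (0.08 to 0.15), and with miR-93 they were 0.06 (0.03 to 0.08) and 0.08 (0.04 to 0.12). After rescaling to equal RPKM totals, Myh9 and Myh10 were at -0.21 and -0.06 with miR-25. With miR-93 they were then at 0.20 and 0.22, further above the control than as deposited. The level of Myh9 over that of Myh10 was 2.78 in the control, 2.40 under miR-106b, 2.74 under miR-93 and 2.51 under miR-25. Myh10 overlaps Ndel1, a dynein regulator, whose log2 fold changes of -0.38 under miR-106b, -0.65 under miR-93 and 0.42 under miR-25 differed in sign from those of Myh10.

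In the control library the levels ran Myh9, Myh10, Prc1, Anln, Kif20a, Ect2, Kif23, Racgap1, Aurkb and Cit from highest to lowest. Anln and Kif20a were next to each other there with a ratio of 1.04 (0.97 to 1.12), and Kif23 and Racgap1 with a ratio of 1.03 (0.93 to 1.15), so that neither pair differed beyond counting error. With miR-106b, Prc1 reached the level of Myh10, with a ratio of Myh10 over Prc1 of 1.01 (0.97 to 1.04). With miR-25 the order was Myh9, Myh10, Anln, Prc1, Kif23, Kif20a, Ect2, Racgap1, Aurkb and Cit. Kif23 and Kif20a were level in that library, at a ratio of 1.01 (0.91 to 1.11), whereas in the control Kif20a had 20.3 RPKM and Kif23 10.6 RPKM. The 8 members other than the myosins lay closer together with miR-25, where the highest had 11.7 times the RPKM of the lowest, than in the control at 22.2 times and with miR-106b at 30.8 times.

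The direct ratios between mimics do not use the control library. For miR-25 over miR-106b, 8 of 10 members were lower and 0 higher, against 23% of 11183 tested genes lower and 22.1% higher. Prc1 was 5.36-fold lower with miR-25 than with miR-106b, a log2 ratio of -2.42 (-2.53 to -2.32), followed by Aurkb at -1.77, Kif20a at -1.73, Ect2 at -1.63 and Racgap1 at -1.53. Cit at -0.22 (-0.41 to -0.02) and Myh9 at -0.35 (-0.38 to -0.32) were not called. For miR-25 over miR-93, 6 of 10 members were lower and 0 higher, against 23% lower and 22.1% higher among 11198 tested genes. Anln at 0.02 (-0.08 to 0.11) and Cit at 0.00 (-0.21 to 0.20) had intervals that included 0 in this ratio.

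Between the mimics that share a seed, 2 of 10 members were lower with miR-93 than with miR-106b and 0 were higher, where 8.21% of 11391 tested genes were lower and 7.3% higher. The members called were Prc1 at -0.58 (-0.65 to -0.52) and Anln at -0.50 (-0.59 to -0.41). The other members except Myh9 were below 0 without passing the cutoff, from -0.34 (-0.43 to -0.26) for Ect2 to -0.04 (-0.07 to -0.0015) for Myh10, and Myh9 was at 0.16 (0.13 to 0.18). The median of the 10 members was -0.23, and that of all tested genes 0.0030.

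The listed genes held between 60.4% and 66.9% of the library sizes, and the summed RPKM of all genes was lower with the mimics than with cel-miR-67. Rescaling the libraries to equal RPKM totals added 0.03 under miR-106b, 0.15 under miR-93 and 0.24 under miR-25 to every log2 fold change. The counts of called members then were 6 higher under miR-106b, 4 higher under miR-93 and 5 lower under miR-25, with Anln and Kif20a added and Myh9 lost. Of all tested genes, 13.8% were then called higher and 11.1% lower under miR-106b, 25.2% and 9.63% under miR-93, and 36.5% and 12.9% under miR-25. On that scale Anln and Kif23 stood at 0.11 and 0.06 with miR-25 and at 0.0004 and 0.12 with miR-93, above 0 where they lay below it before, whereas Ect2, Racgap1, Kif20a, Prc1 and Aurkb kept their direction with each mimic.

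Other genes of cell division were described by lists chosen with earlier results of these data known, beginning with 12 genes of the midzone and the passenger complex. With miR-106b, 11 of the 12 were higher and 0 lower, with miR-93, 10 of 12 were higher and 0 lower, and with miR-25, 0 were higher and 9 of 10 tested genes lower. The medians were 0.80, 0.42 and -0.94. Of all tested genes, 11.9% were higher with miR-106b, 15.1% higher with miR-93 and 22.6% lower with miR-25. The kinesins Kif14 and Kif18b were left out of the count under miR-25, where they had 0.76 and 0.81 RPKM, against 1.63 and 1.89 RPKM in the control. The other subunits of the Aurora B complex were all measured. Birc5, or survivin, which docks the complex, had 6.82 RPKM in the control, 18.6 under miR-106b, 14.0 under miR-93 and 3.36 under miR-25. Incenp, its scaffold, had 4.75, 8.18, 6.36 and 2.80 RPKM in the same order, and Cdca8, or borealin, 9.94, 16.4, 13.0 and 5.44 RPKM. All 3 were called higher with miR-106b and miR-93 and lower with miR-25, as was Aurkb itself. The extremes of the list were Birc5 at 1.44 and the kinesin Kif18b at 0.38 under miR-106b, the centromeric histone Cenpa at 1.08 and Kif18b at 0.22 under miR-93, and Cenpa at -0.37 and Nusap1, a spindle microtubule binder, at -1.63 under miR-25.

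A list of genes that act upstream, for entry into mitosis and the spindle, gave 23 of 27 higher and 0 lower under miR-106b. It gave 11 higher and 0 lower under miR-93, and 0 higher and 22 of 26 lower under miR-25. As deposited, 11.9%, 15.1% and 19.3% of all tested genes were higher with these mimics, and 12.7%, 15.6% and 22.6% lower. Ccnb2 was not matched, and Espl1 was left out under miR-25, where it had 0.83 RPKM. The medians of this list, at 0.66, 0.33 and -0.98, were further from 0 than those of the 10 members at 0.47, 0.13 and -0.61. The gap was smaller for the 8 members other than Myh9 and Myh10, whose medians were 0.59, 0.26 and -0.85. After the rescaling, 19 genes of the mitotic list were higher and 0 lower under miR-93, and 0 higher and 20 lower under miR-25. On that scale 25.2% of all tested genes were higher and 9.63% lower under miR-93, and 36.5% higher and 12.9% lower under miR-25. Ccnb1, the mitotic cyclin B1, was the highest of the list with each mimic, at 2.15, 1.83 and -0.03. The condensin subunit Smc4 was the lowest under miR-106b at 0.12 and under miR-93 at -0.13, and the microtubule depolymerase Kif2c was the lowest under miR-25 at -1.95.

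Genes of DNA replication, which is finished before cytokinesis, were described in the same way. With miR-106b, 4 of 23 tested genes were higher and 1 lower, and with miR-93, 4 of 23 were higher and 3 lower, with medians of 0.08 and -0.03, the latter 0.11 after rescaling, where 4 were higher and 1 lower under miR-93 and 6 higher and 0 lower under miR-106b. For all tested genes as deposited, the shares called higher were 11.9% under miR-106b and 15.1% under miR-93, and those called lower 12.7% and 15.6%. After rescaling the shares were 13.8% and 25.2% higher, and 11.1% and 9.63% lower. How the list differs from the mitotic ones was not tested. With miR-25, 1 of 22 was higher and 20 lower, against 19.3% and 22.6% of all tested genes, and the median of the list was -1.03. After rescaling, 1 was higher and 17 lower with miR-25, against 36.5% and 12.9%, and the median was -0.80. The thymidine kinase Tk1 was the highest at 1.14 and 1.29 with miR-106b and miR-93, and the helicase subunit Mcm3 the lowest at -0.40 and -0.66. With miR-25, Tyms, which makes thymidylate, was at 0.64 and Gins1, another helicase subunit, at -2.05.

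**Figure D3:**
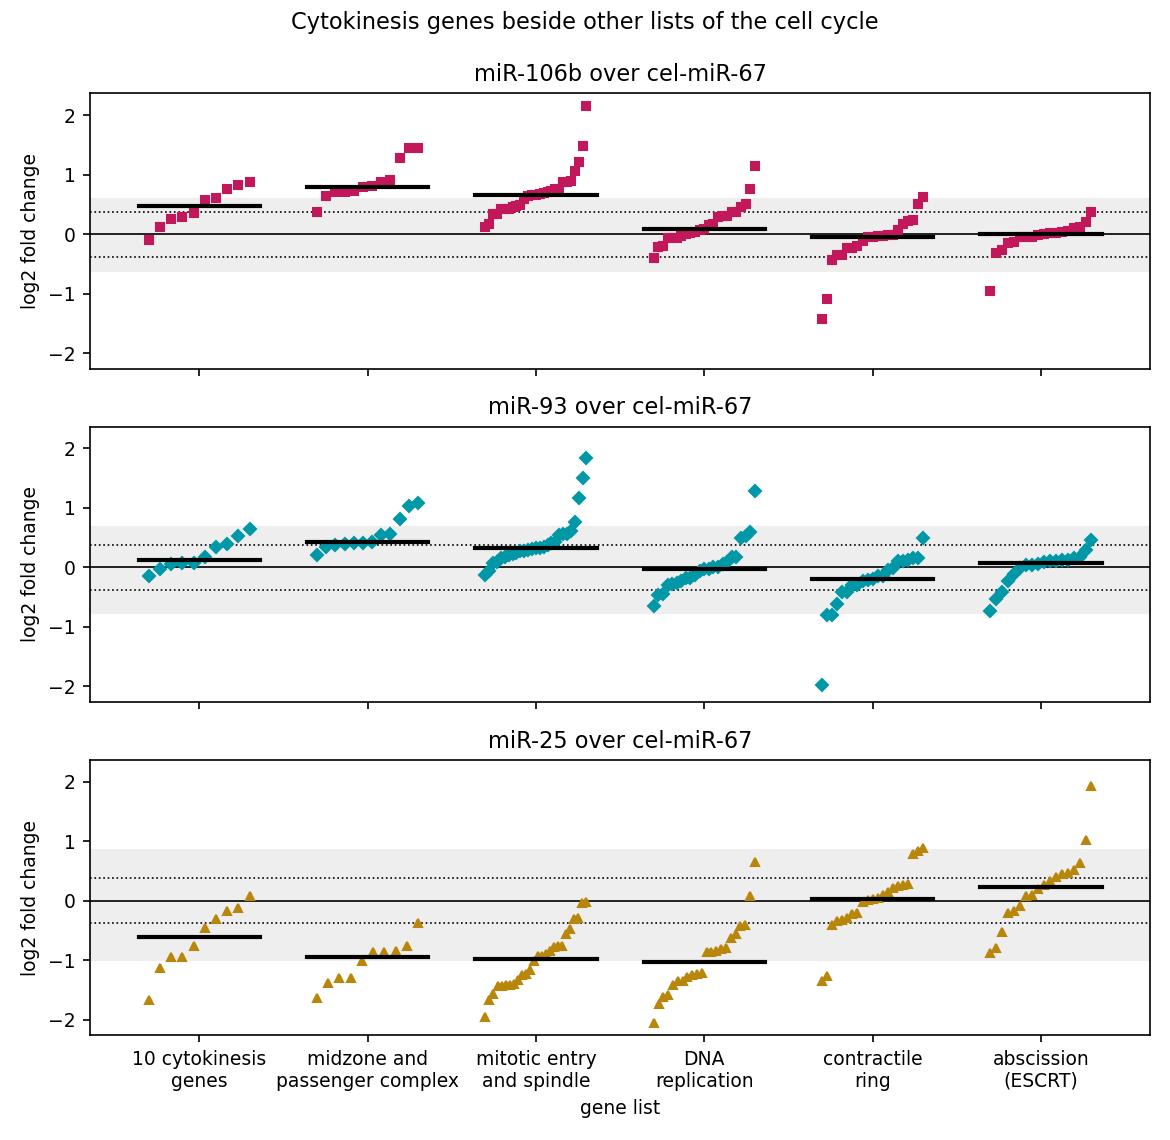
Log2 fold change over cel-miR-67 of every tested gene in 6 lists, sorted within each list, with the list median as a black bar, dotted lines at 1.3-fold and a grey band from the 5th to the 95th percentile of all tested genes. The medians of the midzone and mitotic lists lie at 0.80 and 0.66 with miR-106b and at -0.94 and -0.98 with miR-25, whereas those of the contractile ring list lie at -0.05 and 0.03.

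The machinery that cytokinesis borrows from the resting cell was spread over both directions. Of 26 genes of the contractile ring and its regulation, 21 were matched, and the 5 septins were not, since the table holds some symbols turned into dates. With miR-106b, 2 of 21 were higher and 3 lower, with miR-93, 1 was higher and 6 lower, and with miR-25, 3 were higher and 3 lower, with medians of -0.05, -0.20 and 0.03. After the rescaling, the list split into 7 higher and 2 lower under miR-25 and 1 higher and 4 lower under miR-93, with medians of 0.27 and -0.05. Of all tested genes, 19.3% were higher and 22.6% lower with miR-25 as deposited and 36.5% higher and 12.9% lower after rescaling. The counts of the list with miR-25 lay near these shares. With miR-106b, 11.9% of all tested genes were higher and 12.7% lower as deposited. With miR-93 the shares were 15.1% higher and 15.6% lower as deposited, and 25.2% and 9.63% after rescaling. The list thus had more genes lower and fewer higher with miR-93 than these shares on both scales. Rhoa, the GTPase that Ect2 activates, had 156 RPKM in the control, 136 under miR-106b, 134 under miR-93 and 161 under miR-25, and was called with none of them. Rhoc, a close relative of Rhoa, was the lowest of the list under miR-106b at -1.42 and under miR-93 at -1.97, with 90.9 RPKM in the control, 33.9 and 23.2 with these mimics and 100.1 under miR-25. Iqgap3, a scaffold of the IQGAP family, was the highest with miR-106b at 0.62 and the lowest with miR-25 at -1.34. The myosin light chain kinase Mylk was the highest with miR-93 at 0.49. Myh14, the heavy chain of the remaining non-muscle myosin II, was the highest under miR-25 at 0.89, with 2.52 RPKM in the control, 1.18 under miR-106b, 1.45 under miR-93 and 4.67 under miR-25. Its levels stood well under those of Myh9 and Myh10, and its direction was opposite to theirs with miR-25.

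For abscission, 18 of 20 genes of the ESCRT machinery and its partners were matched. With miR-106b, 0 of 18 were higher and 1 lower, with miR-93, 1 was higher and 3 lower, and with miR-25, 7 were higher and 3 lower, with medians of -0.0044, 0.07 and 0.23. The rescaling turned these medians to 0.03, 0.22 and 0.47 and the counts to 1 higher and 1 lower under miR-106b, 2 and 2 under miR-93, and 10 and 2 under miR-25. As deposited, 11.9%, 15.1% and 19.3% of all tested genes were higher with these mimics, and 12.7%, 15.6% and 22.6% lower. After rescaling, the shares of all tested genes were 13.8%, 25.2% and 36.5% higher and 11.1%, 9.63% and 12.9% lower. Cep55, which recruits ESCRT proteins to the midbody, was below the control with each mimic, at -0.26 under miR-106b (-0.49 to -0.04), -0.54 under miR-93 (-0.78 to -0.30) and -0.89 under miR-25 (-1.15 to -0.63). After the rescaling these values stayed below 0, since they are larger than the shifts. Chmp2b, an ESCRT-III subunit, was the highest with miR-106b at 0.38 and with miR-93 at 0.47. The lowest with these mimics was Zfyve26, a midbody protein, at -0.96 and -0.73. Chmp4c, an ESCRT-III subunit that delays abscission, had 2.08 RPKM in the control, 2.01 under miR-106b, 2.23 under miR-93 and 7.93 under miR-25, and was the highest of the list with miR-25 at 1.93 (1.57 to 2.31).

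A last list held 12 regulators known for a part in polyploidy or in the transcription of mitotic genes. With miR-106b, 4 of 12 were higher and 0 lower, with miR-93, 3 were higher and 1 lower, and with miR-25, 1 of 9 tested genes was higher and 4 lower. All tested genes were higher in 11.9%, 15.1% and 19.3% and lower in 12.7%, 15.6% and 22.6% with these mimics. The medians of the list were 0.30, 0.22 and -0.14, the last of which covers the 9 tested genes only and was 0.10 after rescaling. On that scale 6 were higher and 0 lower under miR-93, against 25.2% and 9.63% of all tested genes. Under miR-25, 1 was higher and 2 lower, against 36.5% and 12.9%. E2f7, E2f8 and Foxm1 were under 1.0 RPKM with miR-25 and so were left out there. Their log2 fold changes as deposited were -1.27, -1.27 and -1.37, below those of every tested gene of the list. The median under miR-25 thus leaves out the lowest values of the list. E2f7 and E2f8, repressors that favour binucleation in liver, were near the RPKM cutoff in the control, at 1.10 and 1.34 RPKM. E2f8 was the highest of the list under miR-106b at 0.48 (0.07 to 0.89) and E2f7 under miR-93 at 0.56 (0.16 to 0.96), and under miR-25 both were under 1.0 RPKM, at 0.46 for E2f7 and 0.56 for E2f8. The Hippo kinase Lats2 was the lowest with miR-106b at -0.37, and the MuvB subunit Lin37 with miR-93 at -0.48. Ccng1, cyclin G1, had 199 RPKM in the control, 241 under miR-106b, 253 under miR-93 and 447 under miR-25, where its log2 fold change of 1.17 was the highest of the list. Mybl2, or B-Myb, was the lowest of the tested genes with miR-25 at -1.14.

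Promoters of the members were read because genes of late mitosis are known to carry the cell cycle genes homology region, or CHR, which the MuvB complexes bind, and the CCAAT box, which NF-Y binds. RefSeq promoters of GRCr8, from 250 bases before to 50 bases after a transcript start, were listed for 8 of the 10 members, with none matched for Racgap1 and Aurkb. The CHR was searched as TTTGAA or TTCGAA and the CCAAT box as CCAAT, each on both strands. The motifs shared a base in 26 of the 33469 promoters listed. A CHR was held by 5 of the 8 members, or 62.5%, against 19.7% of all promoters, and a CCAAT box by 6 of 8, or 75%, against 37.5%. Both were held by 3 of 8, or 37.5%, against 7.95%. The 5 members with a CHR are given by 30 bases around 1 such match, on the strand of the gene and 5′ to 3′, with CHR and CCAAT matches in capitals. They lie at chr8:29197520-29197549 for Anln, chr2:111966759-111966788 for Ect2, chr8:71320646-71320675 for Kif23 and chr12:46424735-46424764 for Cit, all on the minus strand, and at chr1:143659451-143659480 on the plus strand for Prc1.

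Anln: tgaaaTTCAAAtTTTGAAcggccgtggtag

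Ect2: tagcttaTTTGAAacacacgcatagCCAAT

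Kif23: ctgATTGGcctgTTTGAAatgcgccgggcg

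Prc1: cctccggctcggTTTGAAttccgcggggtc

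Cit: gctgttagttctTTTGAAaatggtttattt

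The CHR of Prc1 began 18 bases before the transcript start, those of Anln 31 and 24, that of Kif23 79, that of Cit 96 and that of Ect2 155 bases before it, with another match across the start of Ect2. In Kif23 a CCAAT box in reverse orientation began 88 bases before the start, close to the CHR. Kif20a, Myh9 and Myh10 held CCAAT boxes and no CHR in this window. A CHR was thus found in Anln, Kif23 and Cit, none of which was called with any mimic against the control, as well as in Ect2 and Prc1, and it was not found in Kif20a, which was called with miR-106b and miR-25. Among the other lists, a CHR was in the window of 20 of 27 mitotic genes, 8 of 10 midzone genes and 5 of 9 genes of the polyploidy list. It was in that of 6 of 23 contractile ring genes, 4 of 20 replication genes and 2 of 16 abscission genes. A match is a description of the letters and shows no binding.

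**Figure D4:**
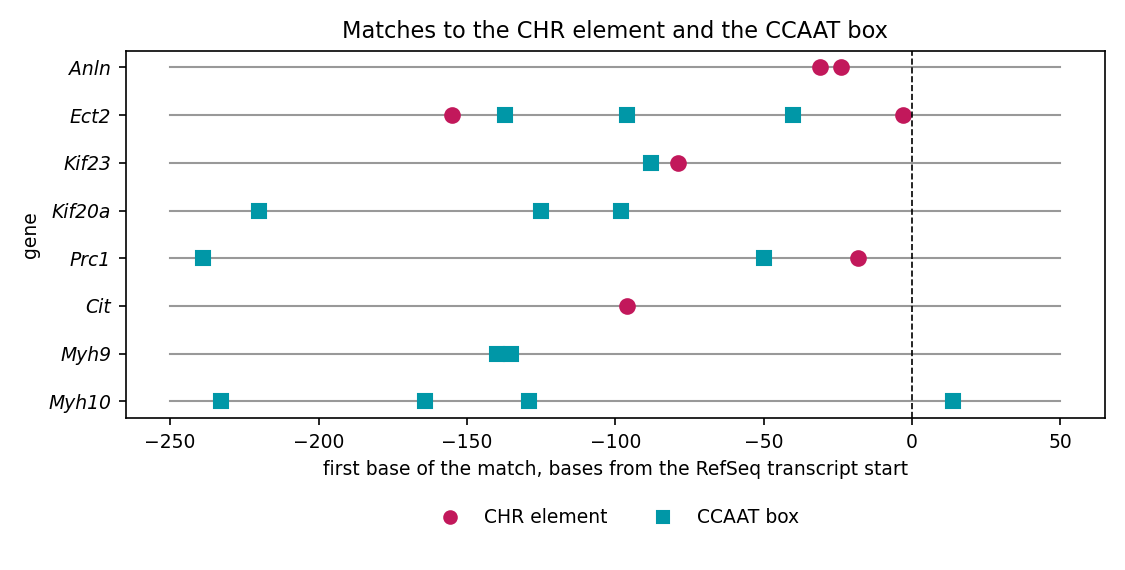
Position of the first base of each CHR (circles) and CCAAT (squares) match from the RefSeq transcript start (dashed line, in bases) in the 8 members with a listed promoter. Anln, Ect2, Kif23, Prc1 and Cit hold at least 1 CHR, and Kif20a, Myh9 and Myh10 hold CCAAT boxes only.

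The genes most like the cytokinesis genes were sought by the distance of their 3 log2 fold changes from the median vector of the 8 members other than the myosins, which was 0.59 under miR-106b, 0.26 under miR-93 and -0.85 under miR-25. Among 10547 genes outside the lists with RPKM above 1.0 in all 4 libraries, the 8 closest were Gm17728, Bora, Dcbld1, Hyls1, Casc5, Pxmp2, Ska3 and Anp32e, at distances from 0.059 to 0.13. Some rest on few reads under miR-25, with 65 for Gm17728, 63 for Hyls1 and 48 for Pxmp2. The log2 fold change of Gm17728 under miR-25 had an interval of -1.35 to -0.41, wider than these distances. The ranking is therefore not settled beyond counting error. Bora is an activator of Aurora A, Casc5 is a scaffold of the kinetochore, Ska3 joins kinetochores to microtubules, Hyls1 is a centriole protein, Pxmp2 is a peroxisomal membrane protein and Anp32e is a histone chaperone. Casc5 had 6.22 RPKM in the control, 8.86 under miR-106b, 7.32 under miR-93 and 3.61 under miR-25. Racgap1 was the closest of the members to that vector at 0.17 and Cit the furthest at 0.99.

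Cell type markers differed between the same libraries. Of 14 cardiomyocyte markers, 13 were matched and all 13 were above 1 RPKM in the 4 libraries, with a summed level of 23306 RPKM in the control, 20736 under miR-106b, 15691 under miR-93 and 13558 under miR-25. The sum rests on a few very abundant genes. The median level over the 13 markers was 413 RPKM in the control, 543 under miR-106b, 499 under miR-93 and 279 under miR-25. That middle rank was held by different genes in different libraries. The median log2 fold change of the markers was -0.05 under miR-106b, with 1 called higher and 4 lower. It was -0.22 under miR-93, with 2 higher and 5 lower, and -0.74 under miR-25, with 1 higher and 12 lower. Among all tested genes, 12.7%, 15.6% and 22.6% were lower with these mimics and 11.9%, 15.1% and 19.3% higher. After rescaling to equal RPKM totals, 1 cardiomyocyte marker was higher and 8 lower under miR-25, with a median of -0.50. Under miR-93, 3 were then higher and 3 lower, with a median of -0.08. Of all tested genes, 36.5% were higher and 12.9% lower under miR-25 on that scale, and 25.2% and 9.63% under miR-93. The 10 fibroblast markers summed to 852 RPKM in the control, 664 under miR-106b, 767 under miR-93 and 350.0 under miR-25. Their median levels were 16.4, 14.1, 16.1 and 16.4 RPKM in the same order. The 7 smooth muscle and pericyte markers summed to 772, 710.0, 605 and 2079 RPKM, with Rgs5 under 1 RPKM with miR-93. The 8 macrophage markers summed to 20.6, 17.5, 20.7 and 14.0 RPKM, with Ptprc under 1 RPKM throughout. Of 8 endothelial markers, 7 were matched, with sums from 5.75 to 8.56 RPKM and with Cdh5, Tie1, Vwf and Emcn under 1 RPKM in the 4 libraries. The part of these 5 marker lists in the levels of the cytokinesis genes was not tested.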

How the data were processed

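RNA-seq libraries of 4 neonatal rat cardiomyocyte cultures, 1 per mimic, were analysed. According to the methods and the processing notes, adaptor-trimmed reads were aligned with STAR 2.7 to Rnor_6.0, and the authors deposited RPKM values that edgeR computed from rounded gene counts. The program that counted reads and its strand setting are not given in the sources used here. Whole reads were recovered from the steps of the RPKM values for all 15731 genes, the largest distance from a whole number being 1.86e-09. For 654 genes a common factor of the reads was multiplied back, and where a common factor was missed the intervals are too wide. The recovery and the intervals were tested on simulated data.

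Fold changes were ratios of RPKM without a pseudocount. Genes past 1.3-fold with RPKM above 1.0 in both libraries were called, and no test was made with 1 library per group. Intervals of 95% are Clopper-Pearson intervals of the share of reads, and for ratios of 2 genes in 2 libraries exact conditional intervals. Alternatives were RPKM cutoffs of 2.0, of 1.0 in either library or none, a fold cutoff of 1.5 or 2, a pseudocount of 0.1 or 1, values centred on the median gene and values rescaled to equal RPKM totals. The members and lists were chosen with earlier results of these data known. Named genes are the 10 members, the highest and lowest tested gene of each other list and mimic, the 8 genes of the most similar pattern and genes needed beside a member. Symbols listed more than once, 176 in all, were left out of the pattern search. Sequences came from RefSeq (GRCr8), whose coordinates were not joined to those of Rnor_6.0. Scripts ran in Python 3.11.15 with scipy 1.17.1 for intervals, numpy 2.4.6 and pandas 2.3.3 for tables, and matplotlib 3.10.9 for figures.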

Additional observations from a re-analysis of the deposited data

How the results depend on the processing

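The count of cytokinesis genes called higher with miR-106b was 5 and fell to 0 at a fold cutoff of 2. Over all 11296 tested genes the count fell from 1339 to 139 at that cutoff. With miR-93 the count of members was 3, and was 1 at a cutoff of 1.5, 0 at a cutoff of 2 and 2 with a pseudocount of 1 RPKM, where Racgap1 was at 0.37. Over all 11280 tested genes it was 1707, and was 781, 192 and 1273 in the same order of settings. With miR-25, 6 members were called lower, and 2 at a cutoff of 2, where the count over all 11198 tested genes fell from 2532 to 561. After rescaling to equal RPKM totals the median was -0.37 with miR-25, against -0.61 as deposited, and 0.27 with miR-93, against 0.13. By construction a stricter cutoff calls fewer genes and the rescaling adds the same shift to every gene. The 30 values of single members moved by less than their counting intervals when centred on the median gene or with a pseudocount of 0.1. With a pseudocount of 1, 1 value moved further, and with the rescaling 19 did. No called value changed sign under these 4 settings. No paired analysis was possible because each group held 1 library, and no replicate could be left out for the same reason. Depth limits Cit and Aurkb most, with 307 and 496 control reads, and differences between cultures were not measured.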
